A study of Arabidopsis thaliana with 12 samples.

Results

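The light response of etiolated Arabidopsis thaliana seedlings was compared between the wild type Col-0 and 35S:miR396a, gene by gene, in 12 RNA-seq libraries. Seedlings of both genotypes were raised for 4 days in darkness on MS medium with 1% sucrose and then received 3 h of light or stayed dark, which gives 4 groups of 3 libraries, dark and illuminated for each genotype. Per the labels, the tissue was hypocotyl, the ecotype Columbia, and the libraries of a group biological replicates. 35S:miR396a makes miR396a from the constitutive 35S promoter of a plant virus, so the microRNA is not limited to the cells or times in which it is normally made. The number of independent lines behind it is not given in the sources used here. For each gene, the light response was the difference of the authors' mean FPKM (fragments per kilobase of transcript, scaled to the mapped fragments of a library) between light and dark on the log2(FPKM + 1) scale. The difference of interest is the response of 35S:miR396a minus that of Col-0. A value in all 4 groups could be collected for 6223 of the 11417 genes that the authors' tables list, out of 38094 annotated genes. Since those tables hold only genes that the authors called at 2-fold or more between some pair of groups, the 6223 were already selected for a change. The tables give 1 mean per group and no value of a single library, so no SD stands beside a mean, the spread between replicates could not be set against any difference, and everything below is a description without a test. On the log2(FPKM + 1) scale the change of low genes is understated.

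De-etiolation is the switch from growth in the dark, with a long hypocotyl and undeveloped plastids, to photosynthetic growth. Light acts through photoreceptors to stop hypocotyl growth and to turn on nuclear genes of chlorophyll synthesis and of the photosynthetic apparatus. Free chlorophyll precursors make reactive oxygen when lit, so pigment synthesis and pigment-binding proteins are normally raised together. miR396 guides the cleavage of mRNAs for GRFs (growth-regulating factors), which drive cell proliferation and organ growth as transcription factors. The mature sequence of the expressed microRNA is shown because it defines the line. It was taken from the TAIR10.1 reference annotation of its precursor (AT2G10606, chromosome 2, 4142323 to 4142473, minus strand), and capitals mark the seed, bases 2 to 8.
miR396a: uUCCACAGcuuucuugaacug

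The light responses of the genotypes differed by 2-fold or more for 3180 of the 6223 genes, which is 51.1%. The response was higher in 35S:miR396a for 1763 of them (28.3% of all) and lower for 1417 (22.8%), so 55.4% of the genes past 2-fold were higher. This split depends on scaling: with each group divided by its median ratio to the geometric mean of the 4 groups, 1441 were higher and 1767 lower, or 44.9% higher. That scaling lowers the difference of every well expressed gene by about 0.40 and moves its median over all genes from 0.12 to −0.03. Large differences were mostly on the higher side, with 790 genes higher and 389 lower at 4-fold, and 174 against 9 at 16-fold. The difference ranged from −7.60 to 10.29 with an SD of 1.68 across genes. Across genes, the responses of the genotypes had a Pearson r of 0.20 and a Spearman rho of 0.17, as a description of genes that share libraries.

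Most of the differences came from a response past 2-fold in 1 genotype and not in the other. Genes higher after light in Col-0 and not in 35S:miR396a numbered 732 (11.8% of the 6223), with median FPKM of 11.02 in dark and 36.4 in illuminated Col-0 beside 9.88 and 8.72 in the overexpressor (median values over genes). Genes lower after light only in Col-0 numbered 528 (8.48%). In the other direction, 668 genes (10.7%) were higher after light only in 35S:miR396a and 353 (5.67%) were lower only there. A further 335 genes passed 2-fold in both genotypes with unlike signs, and these were uneven in direction. In 285 (4.58%) the level was lower after light in Col-0 and higher after light in 35S:miR396a, and the reverse held for 50 (0.803%). The 285 had median FPKM of 27.3 in dark Col-0, 5.57 in illuminated Col-0, 6.99 in dark 35S:miR396a and 30.7 in illuminated 35S:miR396a. Their levels thus crossed, with the illuminated overexpressor near the level of the dark wild type. Responses of like size were not rare: 1082 genes passed 2-fold in at least 1 genotype with a difference under 2-fold, 730 of them lower and 352 higher after light. In the authors' deposited tables, 2012 of the 6223 genes are listed for light in both genotypes, and 635 of these (31.6%) have deposited log2 folds of unlike sign. In 488 the fold is negative for Col-0 and positive for the overexpressor, and in 147 the signs are swapped.

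**Figure D1:**
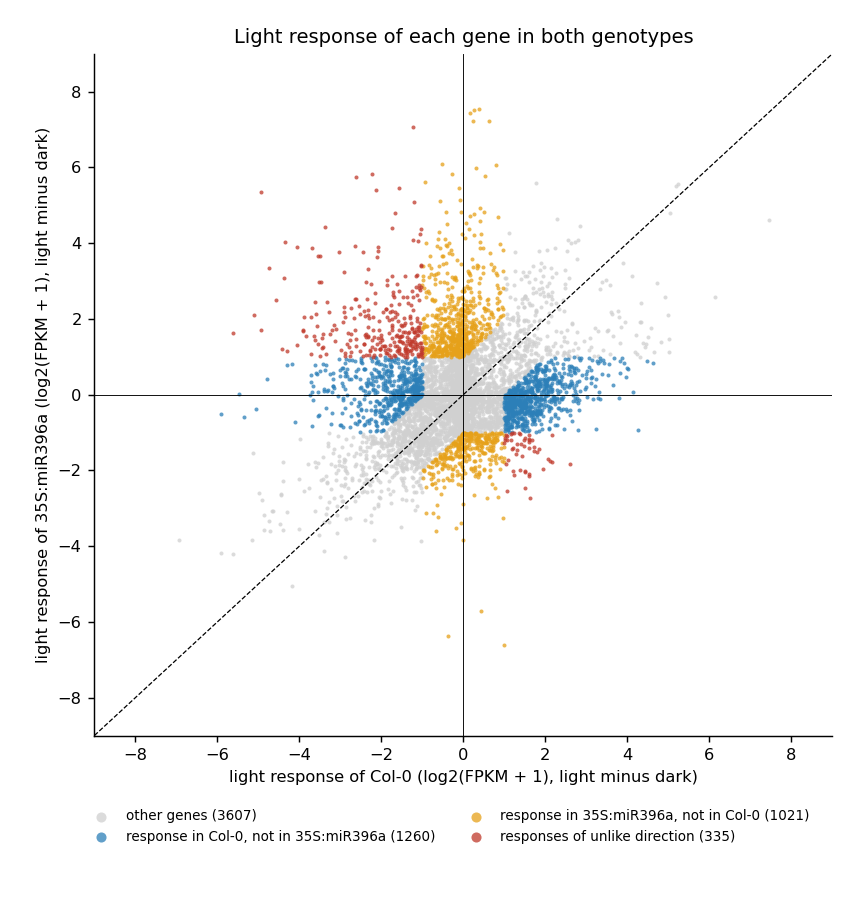
Light response of each of the 6223 genes in Col-0 (horizontal axis) and in 35S:miR396a (vertical axis), both as light minus dark on the log2(FPKM + 1) scale of group means. Points on the dashed line have like responses; the red cloud at upper left holds the 285 genes lower after light in Col-0 and higher after light in 35S:miR396a, beside 50 red points at lower right.

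The same difference can be read as the genotype gap after light minus the genotype gap in the dark. Of the 3180 genes past 2-fold, 2201 (69.2%) had a genotype gap of 2-fold or more in the light and not in the dark, 296 had one only in the dark, 423 in both and 260 in neither. Among the 423, the sign of the gap turned for 361, and 323 of these were lower in dark 35S:miR396a and higher in illuminated 35S:miR396a. Over all 6223 genes, the overexpressor was 2-fold or more higher for 4.29% and lower for 10.9% in the dark, and higher for 27.0% and lower for 24.1% in the light.

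**Figure D2:**
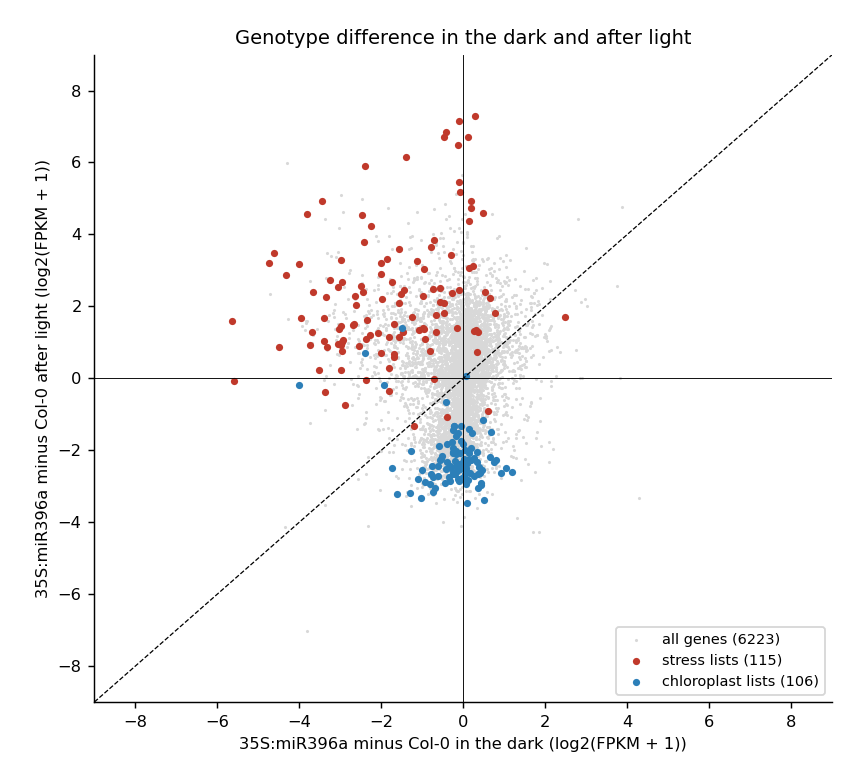
Genotype difference (35S:miR396a minus Col-0, log2(FPKM + 1) of group means) in the dark and after light for all 6223 genes in grey, with 106 members of the chloroplast gene lists in blue and 115 members of the stress gene lists in red. Most blue points lie near 0 on the dark axis and below 0 on the light axis, whereas 52 red points are at least 2-fold lower in the dark and at least 2-fold higher in the light. The stress lists include a touch and wound list drawn up after these values were known, and all lists were chosen with earlier results of these data known.

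Nuclear genes of the photosynthetic apparatus had a uniformly lower response. This gene list and those below were chosen with earlier results of these data known, so their directions are no independent evidence. All 31 genes of photosystem subunits, electron carriers, the ATP synthase gamma subunit and Rubisco were at least 2-fold lower in their light response in 35S:miR396a (22.8% of all genes were), with a median difference of −2.57. In Col-0, 29 of the 31 were 2-fold or more higher after light, as were 18.3% of all genes. In 35S:miR396a, 2 were higher and 4 were lower after light, beside 21.2% and 17.0% of all genes. In the dark none of the 31 differed by 2-fold between the genotypes, and in the light all 31 were lower in the overexpressor. PSAH2, a subunit of photosystem I on the side where antenna complexes dock, went from 99.5 to 1264 FPKM in Col-0 and from 128 to 153 in 35S:miR396a, a difference of −3.40. PSAD-2, the subunit on which ferredoxin docks, went from 104 to 1027 FPKM in Col-0 and from 139.6 to 131 in 35S:miR396a. PSBQ-2, an extrinsic protein of the oxygen-evolving complex, went from 221 to 953 FPKM in Col-0 and from 233 to 124 in 35S:miR396a. For these 3 genes the dark levels were close and the levels after light lay far apart. The electron carrier plastocyanin, encoded by PETE1, was at 37.6 and 267 FPKM in dark and illuminated Col-0, against 52.0 and 44.5 in 35S:miR396a. RCA, the activase that keeps Rubisco open for carbon dioxide, went from 327 to 3870.0 FPKM in Col-0 and from 302 to 529 in 35S:miR396a.

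RBCS2B and PSAH-1 were the 2 members of this group whose responses had unlike signs past 2-fold. RBCS2B, a small subunit of Rubisco, went from 1247 to 3541 FPKM in Col-0 and from 1330.3 to 319.9 in 35S:miR396a, a difference of −3.56. PSAH-1 went from 182 to 434 FPKM in Col-0 and from 183 to 90.12 in 35S:miR396a. RBCS1B, RBCS2B and RBCS3B are near-identical copies in tandem, so the share of reads given to each is uncertain. All 3 values were lower in illuminated 35S:miR396a than in illuminated Col-0. The smallest differences of the group were those of PSBR (−1.81), PSAE-2 (−1.94) and RBCS1A (−1.94). RBCS1A, the copy with the highest level in the dark, went from 5353 to 8745 FPKM in Col-0 and from 4094 to 1739 in 35S:miR396a.

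The 250 bases before the annotated gene start are shown for PSAH2 and RBCS2B, because both hold 2 motifs known from light-regulated plant promoters. Capitals mark the G-box (CACGTG) and the I-box core (GATAAG, read on either strand). The PSAH2 window is chr1:19454548-19454797 on the plus strand and the RBCS2B window chr5:15382072-15382321 on the minus strand, in TAIR10.1.
PSAH2: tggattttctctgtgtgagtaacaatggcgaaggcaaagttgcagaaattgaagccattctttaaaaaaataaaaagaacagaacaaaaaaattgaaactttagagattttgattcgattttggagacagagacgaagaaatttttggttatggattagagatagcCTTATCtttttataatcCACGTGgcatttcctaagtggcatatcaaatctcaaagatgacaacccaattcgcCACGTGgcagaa
RBCS2B: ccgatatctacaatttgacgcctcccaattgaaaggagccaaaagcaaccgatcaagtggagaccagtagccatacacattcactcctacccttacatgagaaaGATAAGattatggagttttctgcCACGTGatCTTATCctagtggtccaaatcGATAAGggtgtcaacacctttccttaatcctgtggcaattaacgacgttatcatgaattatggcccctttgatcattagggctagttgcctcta

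Light-harvesting antenna genes had the same pattern, with 2 exceptions. Of 24 genes, 23 had values in all groups, and 21 of these had a lower response in 35S:miR396a by 2-fold or more (median of the 23, −2.40). LHCB2.3, which encodes a protein of the major antenna of photosystem II, went from 60.3 to 855 FPKM in Col-0 and from 86.3 to 81.6 in 35S:miR396a. LHCB1.4 went from 119 to 2983 FPKM in Col-0 and from 273 to 489 in 35S:miR396a, and LHCA1, an antenna protein of photosystem I, went from 142 to 2997 FPKM in Col-0 and from 181 to 470.1 in 35S:miR396a. LHCB1.3 had the highest level of the list and was alike in dark and illuminated Col-0, at 11174 and 12745 FPKM, while it was at 17768 in dark and 4560.5 in illuminated 35S:miR396a. LHCB1.1, LHCB1.2 and LHCB1.3 are near-identical copies, so their shares of reads are uncertain. The 2 genes with a higher response were the early light-induced proteins ELIP1 and ELIP2, relatives of the antenna proteins that accumulate under light stress and protect the membrane. ELIP1 went from 56.8 to 196 FPKM in Col-0 and from 2.57 to 172 in 35S:miR396a, and ELIP2 went from 35.3 to 99.3 FPKM in Col-0 and from 8.46 to 87.7 in 35S:miR396a. In both the levels after light were close between the genotypes and the dark levels were not. Of the other antenna genes with values, 2 had a dark gap of 2-fold or more, LHCB1.4 and LHCB2.2, both higher in 35S:miR396a. PSBS, the protein that triggers heat dissipation in the antenna, went from 297 to 1746 FPKM in Col-0 and from 177 to 261 in 35S:miR396a.

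The enzymes that fix carbon and recycle its by-products behaved like the photosystems. All 13 Calvin cycle genes with values had a lower response (median −2.201), as did 7 of 8 photorespiration genes (median −1.80). GAPA-2, a plastid glyceraldehyde-3-phosphate dehydrogenase, went from 160.2 to 1676 FPKM in Col-0 and from 209 to 305 in 35S:miR396a. SBPASE, the bisphosphatase that commits sugars to regeneration of the acceptor, went from 126 to 530.0 FPKM in Col-0 and from 77.8 to 62.6 in 35S:miR396a. PRK, which makes the acceptor of carbon dioxide, went from 253 to 421 FPKM in Col-0 and from 103 to 45.7 in 35S:miR396a. Thus PRK was already lower in the dark overexpressor, and 4 of the 13 genes were so by 2-fold or more. Among photorespiration genes, GOX2, a glycolate oxidase, went from 159.9 to 594 FPKM in Col-0 and from 133 to 94.1 in 35S:miR396a. GLDP1, a subunit of glycine decarboxylase, was the gene under 2-fold, with a difference of −0.76.

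In tetrapyrrole synthesis, which makes chlorophyll and heme, 19 of 22 genes had a lower response, 2 a higher one and FLU a difference of −0.76. HEMA1, the glutamyl-tRNA reductase that starts the pathway, went from 78.8 to 279 FPKM in Col-0 and from 65.1 to 81.1 in 35S:miR396a. The 3 magnesium chelatase subunits, 1 of them in 2 copies, ranged from −2.96 for CHLI1 to −2.03 for CHLD, and their activator GUN4 had −2.34. CHLH, the subunit that binds the porphyrin, went from 83.5 to 555 FPKM in Col-0 and from 83.9 to 79.6 in 35S:miR396a. CHL27, a subunit of the cyclase that closes the fifth ring, went from 262 to 1176 FPKM in Col-0 and from 249.6 to 277 in 35S:miR396a. The last light-dependent step is carried out by protochlorophyllide oxidoreductases, and its 3 genes differed among themselves. PORA, which is made in the dark and turned off by light, went from 849 to 5.93 FPKM in Col-0 and from 161 to 10.2 in 35S:miR396a, so its response was negative in both genotypes and smaller in 35S:miR396a. PORB went from 884 to 418 FPKM in Col-0 and from 591 to 112 in 35S:miR396a and PORC went from 19.4 to 90.4 FPKM in Col-0 and from 8.54 to 12.1 in 35S:miR396a. The 2 genes with a higher response were PORA and FC1, the ferrochelatase of stress and non-photosynthetic heme, which went from 83.2 to 31.4 FPKM in Col-0 and from 28.8 to 84.1 in 35S:miR396a. FC2, the ferrochelatase of green tissue, went from 15.3 to 55.6 FPKM in Col-0 and from 10.1 to 10.9 in 35S:miR396a, so the 2 ferrochelatases differed in sign. FLU, the protein that restrains the pathway in the dark, was lower in 35S:miR396a in both conditions, at 24.8 against 85.2 FPKM in the dark and 17.0 against 101 after light.

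Carotenoid genes had a lower response in 7 of 9 cases (median −1.42). LUT5, a hydroxylase of lutein synthesis, went from 6.02 to 68.0 FPKM in Col-0 and from 5.98 to 11.4 in 35S:miR396a, and PSY, the phytoene synthase at the start of the pathway, went from 43.7 to 173 FPKM in Col-0 and from 28.2 to 30.9 in 35S:miR396a. ZEP and BCH1, which act in the xanthophyll cycle branch, were the 2 with like responses, at differences of −0.25 and 0.01. Of the 6 plastid sigma factors, nuclear-encoded subunits that direct the plastid RNA polymerase, 4 had a lower response and SIG5 a higher one. SIG5, which is known to be induced by blue light and stress, went from 8.52 to 9.84 FPKM in Col-0 and from 1.09 to 16.02 in 35S:miR396a, while SIG2 went from 18.5 to 66.6 FPKM in Col-0 and from 14.8 to 9.96 in 35S:miR396a. GLK1, a transcription factor that activates antenna and chlorophyll genes, went from 18.4 to 22.9 FPKM in Col-0 and from 28.7 to 6.49 in 35S:miR396a, and GLK2 went from 161 to 55.5 FPKM in Col-0 and from 56.1 to 40.7 in 35S:miR396a. The paired factors thus differed in sign, with −2.29 for GLK1 and 1.07 for GLK2, although the value of GLK2 was 0.67 with median-ratio scaling, which is under 2-fold. Over the 6 lists of chloroplast genes together, 98 of 106 genes with values had a lower response and 4 a higher one. Over these genes the median genotype gap was −0.09 before light and −2.42 after it. In bulk tissue such as these hypocotyls, fewer cells with developing chloroplasts and less RNA per cell cannot be told apart.

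**Figure D3:**
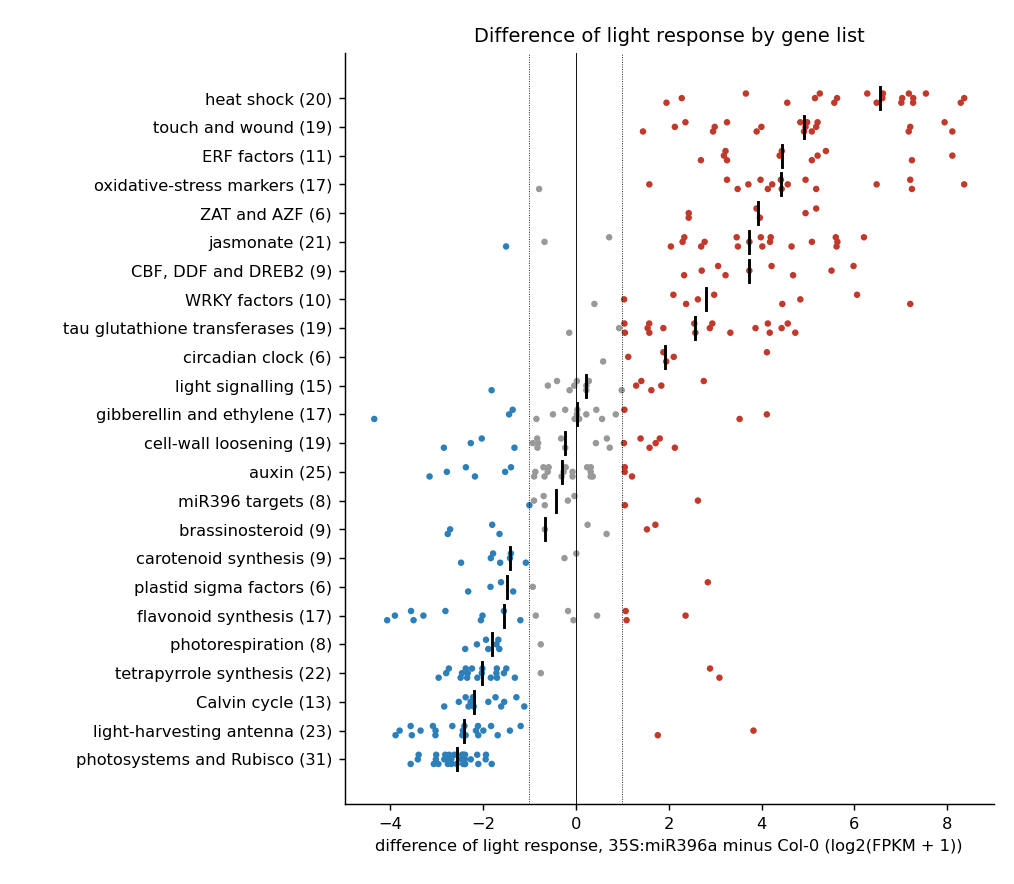
Difference of light response (35S:miR396a minus Col-0, log2(FPKM + 1)) for each gene of 24 lists, with the number of genes with values in brackets. Points are genes, red at 1 or above, blue at −1 or below and grey between; black bars are list medians, which run from −2.57 for photosystems and Rubisco to 6.54 for heat shock.

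Genes of flavonoid synthesis, which light induces as a sunscreen, mostly had a lower response. Of 17 genes with values, 10 had a lower response and 3 a higher one, or 11 and 1 with median-ratio scaling. Among all genes 22.8% had a lower response and 28.3% a higher one. FLS1, the flavonol synthase, had the lowest value, and went from 1.82 to 48.3 FPKM in Col-0 and from 1.73 to 1.85 in 35S:miR396a. CHS, the chalcone synthase that opens the pathway, went from 19.8 to 326 FPKM in Col-0 and from 13.8 to 19.6 in 35S:miR396a. DFR, which leads to anthocyanins, went from 0.0400 to 32.9 FPKM in Col-0 and from 0.0600 to 1.32 in 35S:miR396a. The illuminated overexpressor was at a small fraction of the wild type for these 3 genes. The genes with a higher response were F3H, UGT78D2 and MYB12, and for F3H and UGT78D2 the gap lay in the dark. F3H, the flavanone hydroxylase between CHS and FLS1, went from 11.3 to 58.5 FPKM in Col-0 and from 1.71 to 66.7 in 35S:miR396a. MYB12, an activator of flavonol genes, went from 0.426 to 3.04 FPKM in Col-0 and from 0.216 to 6.35 in 35S:miR396a, so the differences of this activator and of FLS1 had unlike signs.

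Heat-shock genes were the group with the highest values. All 20 genes of the list had a higher response in 35S:miR396a (28.3% of all genes did), from 1.95 for ROF1 to 8.36 for HSFA2, with a median of 6.54. All 20 were 2-fold or more higher after light in 35S:miR396a, and 9 were 2-fold or more lower after light in Col-0 (23.5% of all genes were). HSFA2, the heat-shock factor that sustains the response and is itself induced by heat and oxidative stress, went from 21.0 to 2.60 FPKM in Col-0 and from 1.03 to 109 in 35S:miR396a. HSP17.8, a cytosolic small heat-shock protein that holds unfolding proteins, went from 11.8 to 4.52 FPKM in Col-0 and from 1.43 to 326 in 35S:miR396a. HSP21, the small heat-shock protein of the plastid, went from 0.180 to 0.0900 FPKM in Col-0 and from 0.1 to 47.1 in 35S:miR396a. HSP101, the disaggregase of thermotolerance, went from 31.1 to 9.08 FPKM in Col-0 and from 5.80 to 189 in 35S:miR396a. In these genes the illuminated overexpressor held the highest level of the 4 groups. The summed level of the 20 genes was 529.9 FPKM in dark and 223 in illuminated Col-0, and 129 in dark and 4671 in illuminated 35S:miR396a. Several small heat-shock genes are similar copies (HSP17.8 and AT1G59860, for example), so single values in the family are uncertain. Of 13 genes annotated as HSP20-like with values, some of them in this list, 10 had a higher response and 1 a lower one.

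The 250 bases before the gene start of HSFA2 are shown because this gene had the largest difference of the heat-shock list and the window holds both a G-box and heat-shock elements (GAANNTTC, in capitals with the G-box). The window is chr2:11135374-11135623 on the plus strand.
HSFA2: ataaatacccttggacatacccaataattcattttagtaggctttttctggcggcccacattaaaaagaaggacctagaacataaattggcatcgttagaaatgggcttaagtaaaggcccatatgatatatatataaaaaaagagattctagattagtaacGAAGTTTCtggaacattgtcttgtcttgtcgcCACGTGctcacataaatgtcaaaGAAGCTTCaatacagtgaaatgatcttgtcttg

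Genes of rapid touch, wound and calcium responses were high in dark Col-0 and lower after light there, whereas most were higher after light in 35S:miR396a. All 19 with values in this list of 20 had a higher response in 35S:miR396a (median 4.91), and all 19 were 2-fold or more lower after light in Col-0. In 35S:miR396a 12 were 2-fold or more higher after light, and 14 were 2-fold or more above Col-0 in the light. The list had been drawn up for these data after their values were known, so its direction is no independent evidence. CML38, a calmodulin-like protein, went from 83.6 to 4.12 FPKM in Col-0 and from 2.18 to 46.2 in 35S:miR396a. AT1G76640, another calcium-binding EF-hand protein gene next to CML38 (chromosome 1, 28765254 to 28765866), had the largest difference of all genes with at least 10 FPKM in some group, at 10.29 with a counting SE of 0.11, and went from 34.9 to 0.166 FPKM in Col-0 and from 0.813 to 72.4 in 35S:miR396a. TCH3, a calmodulin-like gene first found by touching plants, went from 179 to 18.6 FPKM in Col-0 and from 43.8 to 147 in 35S:miR396a, and TCH2 went from 207 to 70.1 FPKM in Col-0 and from 58.7 to 54.5 in 35S:miR396a. Thus TCH3 was high again in the illuminated overexpressor and TCH2 was not. WRKY40, a repressor of defence and abscisic acid genes, went from 114 to 2.35 FPKM in Col-0 and from 4.76 to 23.59 in 35S:miR396a, and ZAT12, a zinc-finger regulator of oxidative stress, went from 83.2 to 16.6 FPKM in Col-0 and from 22.2 to 175 in 35S:miR396a. The summed level of the list was 1956 FPKM in dark and 311 in illuminated Col-0, and 331 in dark and 969.9 in illuminated 35S:miR396a. Dark Col-0 therefore stood apart from the other dark group in these genes, and 18 of the 19 were 2-fold or more lower in dark 35S:miR396a. These genes respond to handling within minutes, and the part of sampling in the difference was not tested.

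**Figure D4:**
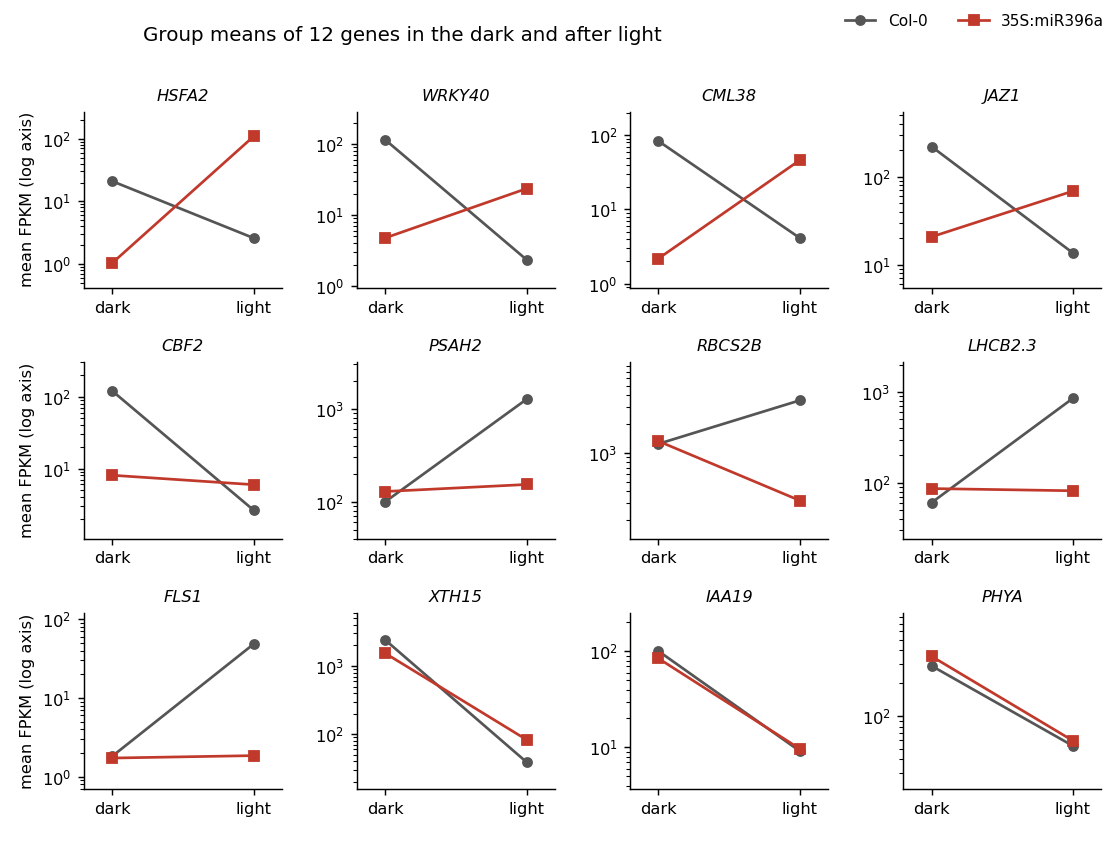
Mean FPKM (log axes, each panel with its own range) of 12 genes in the dark and after light, with Col-0 as grey circles and 35S:miR396a as red squares. For HSFA2, WRKY40, CML38 and JAZ1 the lines cross with slopes of unlike sign. For PSAH2, RBCS2B, LHCB2.3 and FLS1 they start near each other in the dark and lie far apart after light. CBF2 and XTH15 were lower in 35S:miR396a in the dark and higher there after light. The lines of IAA19 and PHYA run close together. Group means have no error bars because single-library values are not in the tables used.

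Stress transcription factors formed the same picture list by list, with differences in how far the illuminated overexpressor went. All 11 ethylene response factors of the list with values had a higher response (median 4.44). The list is a part of its family: of 36 genes annotated as AP2/ERF (integrase-type) with values, 22 were higher and 1 lower (median 1.77). In the list, ERF13 went from 59.6 to 1.25 FPKM in Col-0 and from 1.46 to 24.2 in 35S:miR396a. ERF6 went from 55.9 to 6.62 FPKM in Col-0 and from 13.2 to 69.1 in 35S:miR396a. ERF105 was at 59.0 FPKM in dark Col-0, is listed at 0 in illuminated Col-0, and was at 1.64 and 0.840 in dark and illuminated 35S:miR396a. In the WRKY list 9 of 10 genes with values had a higher response (median 2.80), and WRKY60 was under 2-fold. Of all 33 genes annotated as WRKY with values, 16 were higher and 1 lower (median 0.98). WRKY33, an activator of camalexin synthesis, went from 62.0 to 6.35 FPKM in Col-0 and from 10.6 to 37.7 in 35S:miR396a. All 6 ZAT and AZF zinc-finger repressors with values were higher (median 3.93). Among them ZAT6 went from 47.7 to 23.4 FPKM in Col-0 and from 16.9 to 132 in 35S:miR396a.

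CBF, DDF and DREB2 factors, which activate cold and drought genes, all had a higher response (9 of 9, median 3.74), but 2 patterns lay behind this. For CBF1, CBF2, CBF3, CBF4, DDF1 and DDF2 the level was low in every group but dark Col-0, so the difference came from the gap between dark and illuminated Col-0. CBF2 went from 120.4 to 2.64 FPKM in Col-0 and from 8.06 to 5.97 in 35S:miR396a, and DDF1 went from 57.8 to 0.316 FPKM in Col-0 and from 0.220 to 0.240 in 35S:miR396a. DREB2A, the drought and heat factor upstream of heat-shock genes, instead went from 77.2 to 17.56 FPKM in Col-0 and from 7.25 to 123 in 35S:miR396a, and DREB2C went from 1.74 to 4.14 FPKM in Col-0 and from 0.863 to 28.2 in 35S:miR396a. CBF1, CBF2 and CBF3 are similar tandem copies, so their single values are uncertain. The 250 bases before the start of CBF2 (chr4:13016236-13016485, minus strand) are shown because they hold a rapid stress response element (CGCGTT), a motif whose share among the response classes was highest in genes lower after light in Col-0 alone, and a G-box, both in capitals.
CBF2: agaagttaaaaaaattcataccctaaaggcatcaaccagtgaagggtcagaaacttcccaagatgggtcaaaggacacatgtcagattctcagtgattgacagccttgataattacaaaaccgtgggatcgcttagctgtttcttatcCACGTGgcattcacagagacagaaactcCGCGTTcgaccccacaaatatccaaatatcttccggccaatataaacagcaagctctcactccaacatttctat

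Jasmonate genes had a higher response in 18 of 21 cases and a lower one in LOX2 (median 3.74). AOS, the allene oxide synthase that commits to jasmonate synthesis, went from 102 to 13.4 FPKM in Col-0 and from 25.1 to 65.3 in 35S:miR396a, and AOC3, which acts next, went from 76.4 to 4.12 FPKM in Col-0 and from 8.26 to 29.0 in 35S:miR396a. JAZ1, a repressor that jasmonate removes and that is re-made during the response, went from 219 to 13.5 FPKM in Col-0 and from 20.7 to 68.4 in 35S:miR396a. JAZ10 went from 32.4 to 3.44 FPKM in Col-0 and from 4.88 to 25.5 in 35S:miR396a and TAT3, a tyrosine aminotransferase induced by jasmonate, went from 4.88 to 0.0800 FPKM in Col-0 and from 0.0930 to 13.8 in 35S:miR396a. Except in TAT3, these 5 genes were lower in the illuminated overexpressor than in dark Col-0. LOX2, a plastid lipoxygenase of the same pathway, was the gene on the other side, at 0.0930, 2.49, 0.656 and 0.866 FPKM in dark and illuminated Col-0 and dark and illuminated 35S:miR396a.

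Glutathione transferases of the tau class, which conjugate toxic electrophiles, had no such peak of their summed level in dark Col-0. Of 19 genes with values, 17 had a higher response (median 2.57), and 17 were 2-fold or more higher in illuminated 35S:miR396a than in illuminated Col-0, while in the dark none was higher and 4 were lower. GSTU18 was the gene that was lower in illuminated 35S:miR396a, by a log2 gap of −1.34. GSTU19, the most abundant of them, went from 471 to 513 FPKM in Col-0 and from 552 to 4449 in 35S:miR396a. GSTU25 went from 11.98 to 7.46 FPKM in Col-0 and from 13.9 to 255 in 35S:miR396a and GSTU24 went from 20.4 to 11.4 FPKM in Col-0 and from 28.6 to 301 in 35S:miR396a. The summed level of the class was 975 FPKM in dark and 848 in illuminated Col-0, and 944 in dark and 6213 in illuminated 35S:miR396a, so the other 3 groups were close together in a sum of which GSTU19 is the largest part. Oxidative-stress markers had a higher response in 16 of 17 cases, with some genes of this list also in the lists above. Among those that are not, UGT74E2, a glucosyltransferase induced by hydrogen peroxide, went from 3.69 to 4.196 FPKM in Col-0 and from 4.18 to 106 in 35S:miR396a, and OM66, a protein of the outer mitochondrial membrane, went from 28.0 to 1.84 FPKM in Col-0 and from 2.67 to 6.77 in 35S:miR396a. GRX480, a glutaredoxin that links redox state to defence genes, went from 46.6 to 1.35 FPKM in Col-0 and from 2.40 to 54.2 in 35S:miR396a. Antioxidant enzymes were mixed, with 4 of 10 higher and 3 lower, beside 28.3% and 22.8% of all genes. APX2, a cytosolic ascorbate peroxidase of light and heat stress, went from 0.0860 to 0.110 FPKM in Col-0 and from 0.0500 to 17.45 in 35S:miR396a, and APX1 went from 611 to 549 FPKM in Col-0 and from 563 to 1325 in 35S:miR396a. The 3 with a lower response were plastid enzymes, among them TAPX, the thylakoid ascorbate peroxidase, which went from 21.9 to 38.1 FPKM in Col-0 and from 20.5 to 8.65 in 35S:miR396a. Across the 9 stress lists together, 108 of 115 distinct genes with values had a higher response and LOX2 a lower one. In the dark 71 of the 115 were 2-fold or more lower in 35S:miR396a, in the light 91 were 2-fold or more higher, and 52 were both. Over all 6223 genes, 28.3% had a higher response, 10.9% were lower in the dark and 27.0% higher in the light. In 63 of the 115 the level in illuminated 35S:miR396a was above that in dark Col-0. The touch and wound list, drawn up after its values were known, is among the 9, and all 19 of its genes had a higher response. The other lists were chosen with earlier results of these data known as well. These joint counts are therefore no independent evidence.

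Auxin genes, many of which act in hypocotyl growth, mostly had like responses. Of 25 with values, 16 had a difference under 2-fold, 3 were higher (28.3% of all genes were) and 6 lower, a share near the 22.8% of all genes. With median-ratio scaling none was higher and 10 were lower. IAA19, a repressor of auxin signalling that follows hypocotyl growth, went from 100.5 to 9.15 FPKM in Col-0 and from 84.3 to 9.67 in 35S:miR396a, a difference of 0.32. YUC8, an auxin-synthesis enzyme downstream of PIF factors, went from 12.6 to 3.77 FPKM in Col-0 and from 17.39 to 3.03 in 35S:miR396a. The 6 on the lower side included SAUR14 and SAUR6, small auxin-induced growth genes, and HAT2, an auxin-induced homeobox factor. SAUR14 went from 16.9 to 109 FPKM in Col-0 and from 22.6 to 15.3 in 35S:miR396a, so its level was high in illuminated Col-0 and low in the other 3 groups. The level of the repressor IAA29 differed in the dark and not in the light, at 3.62, 1.75, 19.5 and 1.36 FPKM in dark and illuminated Col-0 and dark and illuminated 35S:miR396a. Of 19 cell-wall genes 6 were higher and 4 lower, shares near the 28.3% and 22.8% of all genes, and median-ratio scaling gave 5 and 8. XTH15, a xyloglucan-remodelling enzyme with one of the highest levels in dark tissue, went from 2402 to 39.0 FPKM in Col-0 and from 1534 to 83.1 in 35S:miR396a. EXPA11, an expansin that loosens the wall, went from 157 to 16.8 FPKM in Col-0 and from 158 to 23.1 in 35S:miR396a, whereas EXPA1 went from 48.3 to 149 FPKM in Col-0 and from 119 to 49.8 in 35S:miR396a.

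Brassinosteroid genes, named in the title of the series, had values for 9 of 24 members, with 2 higher and 4 lower by 2-fold or more, beside 28.3% and 22.8% of all genes. CPD, a synthesis enzyme that the hormone represses, went from 144 to 52.5 FPKM in Col-0 and from 178 to 77.8 in 35S:miR396a, with a difference of 0.25. The 4 lower genes were BEE2, BEE3, PRE6 and PRE1, bHLH proteins known to promote growth. In all 4 the overexpressor was above Col-0 in the dark and below it in the light. BEE2 went from 16.5 to 33.9 FPKM in Col-0 and from 27.1 to 7.27 in 35S:miR396a and PRE6 went from 24.6 to 18.4 FPKM in Col-0 and from 52.5 to 10.6 in 35S:miR396a. PRE5, of the same family as PRE1 and PRE6, was on the higher side, and went from 5.50 to 1.22 FPKM in Col-0 and from 1.496 to 1.79 in 35S:miR396a, a difference of 1.71. Gibberellin and ethylene genes had differences under 2-fold in 11 of 17 cases. Of the rest, 3 were higher and 3 lower, beside 28.3% and 22.8% of all genes. EBF2, an F-box protein that removes ethylene factors and is made in response to ethylene, went from 103 to 46.7 FPKM in Col-0 and from 219 to 102 in 35S:miR396a. GASA4 went from 2389.5 to 468 FPKM in Col-0 and from 5807 to 971 in 35S:miR396a, so both genes were higher in 35S:miR396a in each condition with like responses. GASA6, a small gibberellin-regulated peptide gene of the same family as GASA4, went from 97.05 to 299 FPKM in Col-0 and from 326 to 48.4 in 35S:miR396a, with unlike signs. ACS6, an ethylene-synthesis enzyme of wounding, went from 129 to 10.03 FPKM in Col-0 and from 11.9 to 17.98 in 35S:miR396a.

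Light signalling genes gave no common direction, with 5 of 15 higher, PHOT1 lower and 9 under 2-fold. The 33.3% higher is near the 28.3% of all genes, and 6.67% were lower beside 22.8% of all genes. PHYA, the photoreceptor of far-red light that is lost in the light, went from 287 to 53.2 FPKM in Col-0 and from 351 to 59.3 in 35S:miR396a. FHY1, which carries it into the nucleus, went from 38.8 to 9.89 FPKM in Col-0 and from 35.8 to 9.24 in 35S:miR396a, and the growth factor PIF3 went from 36.4 to 13.8 FPKM in Col-0 and from 34.8 to 12.8 in 35S:miR396a. These 3 responses were close to equal between the genotypes, at differences of −0.14, 0.02 and −0.03. HY5, the factor that promotes photomorphogenesis, went from 60.0 to 19.4 FPKM in Col-0 and from 16.9 to 39.5 in 35S:miR396a, and its homolog HYH went from 7.87 to 26.0 FPKM in Col-0 and from 2.78 to 34.4 in 35S:miR396a. PHOT1, a blue-light receptor of phototropism, went from 107 to 48.2 FPKM in Col-0 and from 95.1 to 11.5 in 35S:miR396a. Clock genes had values for 6 of 14 members, and 5 of the 6 had a higher response, or 4 with median-ratio scaling. Among all genes 28.3% had a higher response. PRR9, a morning repressor that light induces, went from 9.32 to 1.06 FPKM in Col-0 and from 1.003 to 5.94 in 35S:miR396a, and CCA1 went from 13.2 to 2.66 FPKM in Col-0 and from 8.89 to 9.97 in 35S:miR396a. All 4 dark-starvation genes with values, among 12 in the list, had a higher response, or 3 with median-ratio scaling. All 4 were 2-fold or more lower after light in Col-0. In 35S:miR396a none was 2-fold higher after light and 1 was 2-fold lower. Their median light response was −3.11 in Col-0 and −0.79 in 35S:miR396a. ASN1, an asparagine synthetase that carbon supply represses, went from 231 to 28.3 FPKM in Col-0 and from 257 to 147 in 35S:miR396a.

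The direct targets of miR396 had no common difference of light response. GRF8 and GRF7 were higher, GRF4 was lower by just over 2-fold, and the other 5 were under 2-fold (median of the 8, −0.42). These calls depend on scaling, since median-ratio scaling gave 1 higher and 4 lower. They also depend on the pseudocount, with 2 higher and 3 lower at 0.1, and 1 and 0 at 5. GRF8 and GRF4 were at low levels, with highest group means of 1.41 and 3.58 FPKM. GRF7, which represses stress genes in unstressed plants, went from 24.1 to 0.186 FPKM in Col-0 and from 3.21 to 0.230 in 35S:miR396a. bHLH74 went from 17.5 to 9.56 FPKM in Col-0 and from 3.61 to 1.58 in 35S:miR396a, a difference of −0.03 on levels lower in the overexpressor throughout. GRF2 went from 9.08 to 4.70 FPKM in Col-0 and from 3.78 to 0.670 in 35S:miR396a and GRF3 went from 13.1 to 15.3 FPKM in Col-0 and from 7.06 to 4.00 in 35S:miR396a.

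Beyond the lists, the 3 lowest values of all belonged to genes whose level was highest in dark 35S:miR396a and lowest in illuminated 35S:miR396a. AT3G16670 (chromosome 3, 5681380 to 5682362), a gene of the pollen Ole e 1 and extensin family, went from 5.61 to 12.2 FPKM in Col-0 and from 127 to 0.316 in 35S:miR396a, a difference of −7.60 with a counting SE of 0.09. Its neighbour AT3G16660 went from 40.4 to 54.6 FPKM in Col-0 and from 148 to 1.85 in 35S:miR396a, and AT3G05730, a defensin-like gene on the same chromosome, went from 89.3 to 68.1 FPKM in Col-0 and from 292 to 2.56 in 35S:miR396a. A different pattern was that of AT4G28780, a GDSL-type lipase gene, which went from 2.17 to 59.6 FPKM in Col-0 and from 6.87 to 3.12 in 35S:miR396a. Of 43 GDSL lipase genes with values, among 101 annotated, 16 were on the lower side and 1 higher, beside 22.8% and 28.3% of all genes. On the higher side, FAMT, a methyltransferase of a sesquiterpenoid acid, went from 10.3 to 0.0900 FPKM in Col-0 and from 0.0960 to 22.4 in 35S:miR396a, and MSRB8, which repairs oxidised methionine, went from 14.6 to 0.216 FPKM in Col-0 and from 1.05 to 29.2 in 35S:miR396a. Genes with differences within 0.25 of 0 included ECS1, which went from 0.766 to 57.2 FPKM in Col-0 and from 0.613 to 43.8 in 35S:miR396a, and TZP, a zinc-knuckle protein of light signalling, which went from 3.61 to 19.2 FPKM in Col-0 and from 1.6 to 9.97 in 35S:miR396a.

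Families named by the annotation were uneven as well, counted over the members with values, which are only a part of each family. Of all 6223 genes, 28.3% had a higher response and 22.8% a lower one. Of 44 ribosomal protein genes with values, among 344 annotated, 29 had a lower response and 5 a higher one (median −1.56). Of 35 pentatricopeptide-repeat proteins, which process organelle RNA, among 262 annotated, 16 were lower and 1 higher. Of 26 MATE transporters, which export toxins and metabolites, among 55 annotated, 13 were higher and none lower. Of 17 EF-hand proteins, among 41 annotated, 12 were higher and none lower. Of 60 RING/U-box ubiquitin ligases, among 330 annotated, 27 were higher and 4 lower. C1-domain proteins, in contrast, had 2 of 55 genes on either side, among 151 annotated. By chromosome, the share with a higher response was 27.1% to 29.6% and that with a lower response 21.1% to 25.98% on the 5 nuclear chromosomes.

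Adjacent genes on a chromosome at times shared a direction. Counted over neighbouring annotated genes that all passed 2-fold in 1 direction, there were 37 runs of at least 3 genes, 25 higher and 12 lower. The longest was a tandem array of 5 glutaredoxin-like genes on chromosome 4 (AT4G15660 to AT4G15700, 8925571 to 8938124), with differences from −4.44 to −3.07. AT4G15680 in this array went from 1.52 to 14.3 FPKM in Col-0 and from 9.83 to 2.02 in 35S:miR396a. The array genes are similar copies, so reads may be divided between them. The seed storage albumins SESA1 to SESA4, also a tandem array, were higher with differences from 1.25 for SESA4 to 2.298 for SESA3. Of 10 seed-reserve genes, 7 had a higher response (median 1.304), or 4 with a pseudocount of 5, and most were at a low level, such as SESA3, which went from 0.680 to 2.303 FPKM in Col-0 and from 1.48 to 23.0 in 35S:miR396a. Root markers had values for 0 of 9 genes and shoot apex markers for 3 of 8, the highest at 0.946 FPKM; genes without values are those that the authors did not call in enough pairs of groups, so their levels are unknown.

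Genes of the organelle genomes, recognised by their identifiers, had smaller median differences than the nuclear chloroplast lists. Of 46 plastid-encoded genes with values, 15 had a lower response and none a higher one (median −0.75). Those 15 are 32.6%, beside 22.8% of all genes. In the dark 39 of the 46 were 2-fold or more higher in 35S:miR396a, as were 4.29% of all genes. Of 46 mitochondrial genes, 12 had a higher response and none a lower one (median 0.69), and their 26.1% is near the 28.3% of all genes. Most organelle genes were at low levels, and the counts moved with the pseudocount. They were 26 lower for the plastid and 36 higher for the mitochondrion with 0.1, and 5 and 3 with 5. Median-ratio scaling gave 25 and 11. The labels say that mRNA was sequenced, and organelle transcripts are caught unevenly by such libraries.

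Promoters of the response classes differed in the motifs they held. Windows from 250 bases before to 50 after the annotated start of 27443 nuclear protein-coding genes were searched on both strands for the G-box (CACGTG), the ABRE core (ACGTGT), the heat-shock element (GAANNTTC), the W-box (TTGACC or TTGACT), the rapid stress response element (CGCGTT), the I-box core (GATAAG) and the evening element (AAAATATCT). A G-box followed by T holds the ABRE core as well, so these counts overlap. A G-box was in 7.68% of all windows and 10.5% of those of genes with 4 values. Among genes lower after light in Col-0 and higher in the overexpressor it was in 21.1%, and among those higher only in 35S:miR396a in 16.2%. It was in 38.7% of the 31 photosystem and Rubisco genes and in 6 of 24 antenna genes, lists in which nearly all genes with values had a lower response in 35S:miR396a. The ABRE core was in 12.4% of all windows, 17.1% of genes with 4 values and 32.0% of the genes lower in Col-0 and higher in the overexpressor. The heat-shock element was in 11.6% of all windows and 12.4% of those of genes with 4 values. It was in 23.9% of the genes lower in Col-0 and higher in the overexpressor and in 35.0% of the 20 heat-shock list genes. The rapid stress response element was in 3.40% of all windows and 4.15% of those of genes with 4 values. It was in 8.80% of the genes lower in Col-0 and higher in the overexpressor and in 10.5% of genes lower only in Col-0. The I-box core was in 14.6% of all windows and 17.5% of those of genes with 4 values. It was in 24.9% of genes higher only in Col-0 and in 61.3% of the 31 photosystem and Rubisco genes. The W-box was in 32.4% of all windows and 34.8% of those of genes with 4 values. It was in 43.3% of genes of unlike sign that were lower in Col-0 and in 25.99% of genes higher only in Col-0. The evening element was in 2.82% of all windows, 3.51% of genes with 4 values and 5.28% of the class lower in Col-0 and higher in the overexpressor. Some small classes had higher shares. Of 49 genes higher in Col-0 and lower in the overexpressor, 32.7% held the I-box core. Of 43 genes higher in both genotypes, and more so in 35S:miR396a, 23.3% held a G-box and 32.6% the ABRE core. Of 60 genes higher in both, and less so in 35S:miR396a, 23.3% held a G-box and 11.7% the evening element. Median GC content of the windows was 32.0% over all genes and between 31.3% and 32.7% in the response classes set beside them here, but 35.8% in the heat-shock list and 33.7% in the photosystem and Rubisco list. A match is a run of letters and not a bound site.

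**Figure D5:**
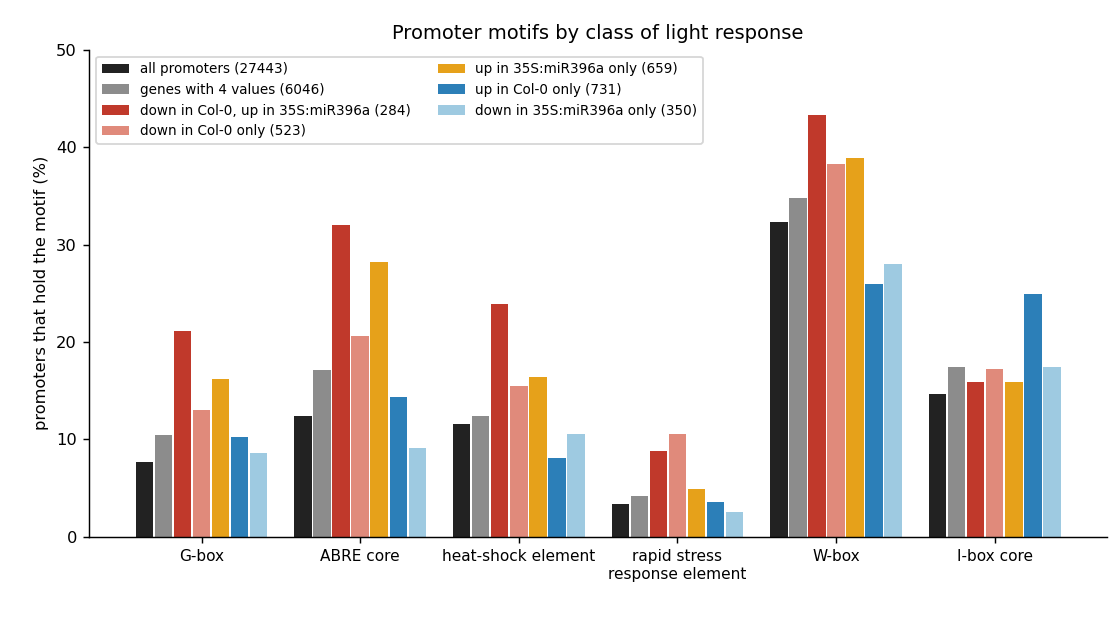
Share of promoter windows (%, bars from 0) that hold each of 6 motifs, for all nuclear protein-coding genes, the genes with 4 values and 5 response classes, with the number of windows in the legend. The red bars, genes lower after light in Col-0 and higher in the overexpressor, are the highest shown for the G-box (21.1%), ABRE core (32.0%), heat-shock element (23.9%) and W-box (43.3%), and the blue bar of genes higher only in Col-0 is the highest shown for the I-box core (24.9%). Some classes of 43 to 60 windows, which are not shown, had higher shares for the G-box, ABRE core and I-box core. Some gene lists, also not shown, had higher shares too, such as the antenna list for the ABRE core (45.8%).

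Genes that were lower after light in Col-0 and higher in the overexpressor often had a single exon. Those with a single exon made up 40.5% of this class and 35.4% of the genes lower only in Col-0, against 15.3% of genes higher only in Col-0 and 24.2% of all genes with 4 values. Median transcript length differed less, at 1392.5 bases in the first class and 1533 over all.

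Pooled over the 3 libraries of a group, the depth estimated from the deposited folds and p-values ranged from 113739000 fragments for dark Col-0 to 126849000 for the illuminated overexpressor. The counting SE of a difference then had a median of 0.069 on the log2 scale. None of the 3134 genes past 2-fold with a known transcript length had under 30 fragments in its highest group. Counting error leaves out the spread between replicates, which the tables used here do not give.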

How the data were processed

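Hypocotyl RNA was sequenced on the BGISEQ-500 platform, per the labels. Mapping used HISAT and Bowtie2 with the TAIR10 build, per the submitters' processing notes. The sources used here do not give library layout or strand.

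The authors deposited 6 tables of called genes, 1 per pair of groups, with the mean FPKM of both groups. Each table also gives a log2 fold change and a p-value and q-value of DEGseq, per the file headers (deposited values; the design text names NOISeq instead). A gene's mean for a group was the same in every table that lists it.

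Light responses were differences of log2(FPKM + 1), with 1 on that scale (2-fold) as the threshold. Pooled depth was solved from deposited folds and p-values of genes with transcripts of at least 1500 bases, under the random-sampling model of DEGseq, and gave the counting SE. The scripts were tested on simulated data (Python 3.11.15, pandas 2.3.3, numpy 2.4.6, scipy 1.17.1).

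Of the 6223 genes, 6046 matched the TAIR10.1 annotation and 85 were new transcripts of the sequencing centre. The members and 35 gene lists were chosen with earlier results of these data known. Named genes were the 10 highest and 10 lowest differences and the strongest opposite and like responses, among genes with values above 0 and at least 10 FPKM in 1 group, and the 3 most different genes of each list. For the list genes those limits, which the rule also set, were not applied (ERF105 and PRR9, for example). Others were named after their values were seen. Sequences are from RefSeq (TAIR10.1).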

Additional observations from a re-analysis of the deposited data

How the results depend on the processing

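With a pseudocount of 0.1, the counts of genes lower after light in the wild type and higher in 35S:miR396a, of the reverse, and of genes lower only in 35S:miR396a were 443, 106 and 644; with 5 they were 147, 18 and 147, and 927 genes had a lower response. Median-ratio scaling of the groups gave 104 genes higher in Col-0 and lower in 35S:miR396a and 337 lower only in Col-0. Among the 2012 genes listed in both light tables, 601 were higher and 257 lower; 77 were higher only in Col-0, 60 lower only in Col-0, 97 higher only in 35S:miR396a and 27 lower only there, and few genes of the chloroplast lists are left. There the medians were 0.79 for 4 tetrapyrrole, −0.12 for 2 carotenoid and −0.86 for 10 flavonoid genes, while 1 photorespiration gene (−0.76) and 1 miR396 target (2.63) are no list. With a pseudocount of 5 the medians of the CBF, DDF and DREB2, tau-class transferase, jasmonate and miR396 target lists were 2.19, 1.64, 2.48 and −0.08. The authors' deposited log2 folds of those genes gave 760 higher and 378 lower, with 488 and 147 of unlike sign; responses in 1 genotype only were 0 by construction. At 4-fold there were 790 higher and 389 lower, 50 and 0 of unlike sign, 161 and 212 higher and lower only in Col-0, and 256 and 43 only in 35S:miR396a. Filters at 1 and 5 FPKM, genes listed in at least 1 light table and, as a choice made after seeing the data, genes beyond counting error gave counts within 1.5 times of these. No paired analysis was possible because the tables hold group means only, and leaving out a replicate was not run for that reason.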
